A study of Mus musculus with 10 samples.

Results

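The genes that build and lay down the ceramide barrier of the epidermis were examined in RNA-seq libraries of inflamed mouse ear skin. The members are 10 genes chosen by symbol and role, Alox12b, Aloxe3, Elovl1, Elovl4, Cers3, Pnpla1, Nipal4, Ugcg, Abca12 and Smpd3, out of 19703 protein-coding genes in the expression table. All 10 were expressed well above the filter on low counts and all were tested among 15174 genes. Mice had MC903, a vitamin D analogue also called calcipotriol that provokes inflammation and itch resembling atopic dermatitis, painted on the left ear for 7 consecutive days and again on day 8. On day 8 they were gavaged in a volume of 100 µl with vehicle (5 libraries) or with the urotensin II receptor (GPR14) antagonist GSK1562590 at 5 mg/kg (5 libraries), and ear skin was taken on day 13 per the labels. The groups thus share MC903, and levels cannot be set against skin that never received it, which was not analysed here. Strain, age and sex are not named in the labels used here. Whether each numbered sample is a separate mouse is not said either, and p-values then cover the spread between samples, which may be technical.

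In the outermost living layer of the epidermis, the granular layer, keratinocytes make ceramides with very long acyl chains that carry linoleate at their far end. These acylceramides are glucosylated, packed into lamellar granules and secreted, and a pair of lipoxygenases oxidises the linoleate so that the ceramide can be bound to the protein envelope of the dead cell. Inherited loss of several of these genes causes ichthyosis in people, a dry and scaling skin with high water loss.

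Antagonist ears had higher levels of 5 of the 10 genes, and none fell past the threshold. In bulk skin more or fewer cells of a type and more or less RNA per cell cannot be told apart. Aloxe3, the second lipoxygenase of the route, rose 1.62-fold, Pnpla1, which attaches linoleate to the ceramide, 1.45-fold and Nipal4, a membrane protein that acylceramide formation needs, 1.36-fold. Abca12, the lipid transporter of lamellar granules, rose 1.21-fold and Elovl1, a fatty acid elongase, 1.19-fold. The elongase Elovl4, the ceramide synthase Cers3, the glucosylceramide synthase Ugcg, the first lipoxygenase Alox12b and the sphingomyelinase Smpd3 did not pass the test. At an adjusted p under 0.05 (edgeR's quasi-likelihood F test, Benjamini-Hochberg over 15174 genes), 34.1% of all tested genes were called, 16.7% as higher and 17.4% as lower. The members' median log2 fold change was 0.24, beside −0.000181 over all tested genes. These genes were assembled with results of these libraries known, Aloxe3 above all, so their count is a description. In the authors' deposited table the q-values were 5.92e-08 for Aloxe3, 9.32e-07 for Pnpla1, 0.00137 for Nipal4, 0.0131 for Abca12 and 0.0165 for Elovl1, and from 0.112 up for the other members.

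The bases upstream of annotated starts of the risers are printed from RefSeq on build GRCm38.p6, 5′ to 3′ along the gene. Promoters were found there for 8 of the 10 members, with 9 starts. The 4 risers among them are shown, Elovl1 with the first of its starts. Capitals mark the letters CACCC or GGGTG, as bound by Krüppel-like factors, and GCCNNNGGC, as bound by AP-2 factors, read on both strands.
Pnpla1, chr17:28858161-28858410, plus strand: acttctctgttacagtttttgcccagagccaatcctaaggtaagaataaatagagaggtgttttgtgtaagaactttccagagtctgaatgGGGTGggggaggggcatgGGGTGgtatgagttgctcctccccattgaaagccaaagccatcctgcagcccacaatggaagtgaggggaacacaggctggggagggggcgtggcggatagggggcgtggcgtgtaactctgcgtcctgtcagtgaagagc
Nipal4, chr11:46166509-46166609, minus strand: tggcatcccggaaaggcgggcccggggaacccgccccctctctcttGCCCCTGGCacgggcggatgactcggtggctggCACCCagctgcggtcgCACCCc
Abca12, chr1:71414911-71415160, minus strand: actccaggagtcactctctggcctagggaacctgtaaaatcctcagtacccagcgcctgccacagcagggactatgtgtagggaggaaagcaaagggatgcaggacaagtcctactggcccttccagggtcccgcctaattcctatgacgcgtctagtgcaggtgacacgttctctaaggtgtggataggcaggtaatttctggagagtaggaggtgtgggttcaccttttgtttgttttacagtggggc
Elovl1, chr4:118427843-118428092, plus strand: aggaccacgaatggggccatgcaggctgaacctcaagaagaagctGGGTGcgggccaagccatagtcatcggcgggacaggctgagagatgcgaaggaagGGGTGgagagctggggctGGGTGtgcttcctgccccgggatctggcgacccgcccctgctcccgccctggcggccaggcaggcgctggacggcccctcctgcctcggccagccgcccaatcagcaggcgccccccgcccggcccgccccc
The Nipal4 stretch stops after 101 bases, where the GENCODE M21 annotation places its first exon, and the Pnpla1 stretch overlaps an exon of the antisense gene Pnpla1os. In the expression table Pnpla1 starts at 28852055, Elovl1 starts at 118426874 and Nipal4 reaches 46183154. The printed stretches of these genes thus lie inside the intervals given there, and that of Abca12 lies outside. Over the 250 bases before each of the 9 starts, CACCC or its complement was found in 7, beside 52.0% of 32851 promoters of the same length, and GCCNNNGGC in 4, beside 13.7%. Members that were not called are among them. CACCC or its complement was before Pnpla1, Nipal4 and both starts of Elovl1, and before Alox12b, Cers3 and Ugcg. Of the risers Nipal4 alone held GCCNNNGGC, and the other windows with it were those of Alox12b, Elovl4 and Ugcg. The AP-1 letters TGANTCA and the Grainyhead letters AACCGGTT were in 0 of the 9, beside 6.75% and 0.116% of all. The nuclear receptor half-site AGGTCA was in 2, beside 14.0%. AP-2 and Krüppel-like letters did not overlap in the printed stretches. The windows differ in base composition, with 53.2% G and C for Abca12, 54.0% for Pnpla1, 71.6% for Nipal4 and 72.0% for Elovl1, beside a median of 52.4% over all promoters. For the members that were not called it was 49.6% for Cers3, 66% for Alox12b, 69.6% for Elovl4 and 80.4% for Ugcg. A match describes the letters and not a bound site.

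Of the lipoxygenases Aloxe3 had the largest log2 fold change of the 10 members and Alox12b did not pass. Aloxe3 turns the hydroperoxide made by Alox12b into an epoxy alcohol. In vehicle ears its level was 41.5, 54.6, 53.7, 54.1 and 53.7 CPM (counts relative to library size, scaled with TMM factors) in replicates 3, 9, 10, 11 and 12. In antagonist ears it was 69.7, 100.1, 83.9, 78.3 and 85.0 CPM in replicates 4, 6, 7, 8 and 10. Every antagonist library lay above every vehicle library. With means of 51.5 ± 5.65 and 83.4 ± 11.1 CPM (SD, n = 5), its log2 fold change came to 0.69 ± 0.10 (SE; adjusted p = 0.00144 by edgeR), and the call held without any 1 library.

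Alox12b, which adds oxygen to the linoleate of acylceramide, ranged in vehicle ears from 98.3 to 147 CPM and in antagonist ears from 126 to 146 CPM. The groups overlapped, since vehicle replicate 10 was the highest of all libraries. The log2 fold change was 0.22 ± 0.10 (SE) with a 95% interval of 0.000417 to 0.45, and the adjusted p by edgeR was 0.109. Without vehicle replicate 10 it was 0.32 and passed (adjusted p = 0.0175). Without any 1 of the other 9 libraries the call was missed (adjusted p by edgeR from 0.103 to 0.209). Aloxe3 and Alox12b lie next to each other on chromosome 11, at 69125417 to 69149115 and 69157072 to 69169791, with 7957 bases between them (positions as in the table, which match GRCm38).

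Whether the lipoxygenases changed by unequal amounts was asked of their TPM ratio. TPM is relative to gene length as well as library size, so levels of different genes can be set side by side. The log2 ratio of Aloxe3 to Alox12b averaged −1.46 ± 0.17 with vehicle and −1.02 ± 0.22 with antagonist (SD, n = 5), so Aloxe3 stood at 0.363 and then 0.494 of the Alox12b level. The difference of 0.44 had an exact two-sided permutation p of 0.0238, where 5 against 5 can give no less than 0.00794, and an adjusted p of 0.0952 over 4 pairs. It was therefore not past the threshold, and antagonist replicate 4, at −1.37, lay inside the vehicle range. Without vehicle replicate 12 or antagonist replicate 4 the exact permutation test passed (adjusted p = 0.0423 and 0.0317). Without any other single library it did not pass (adjusted p from 0.0952 to 0.159).

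**Figure D1:**
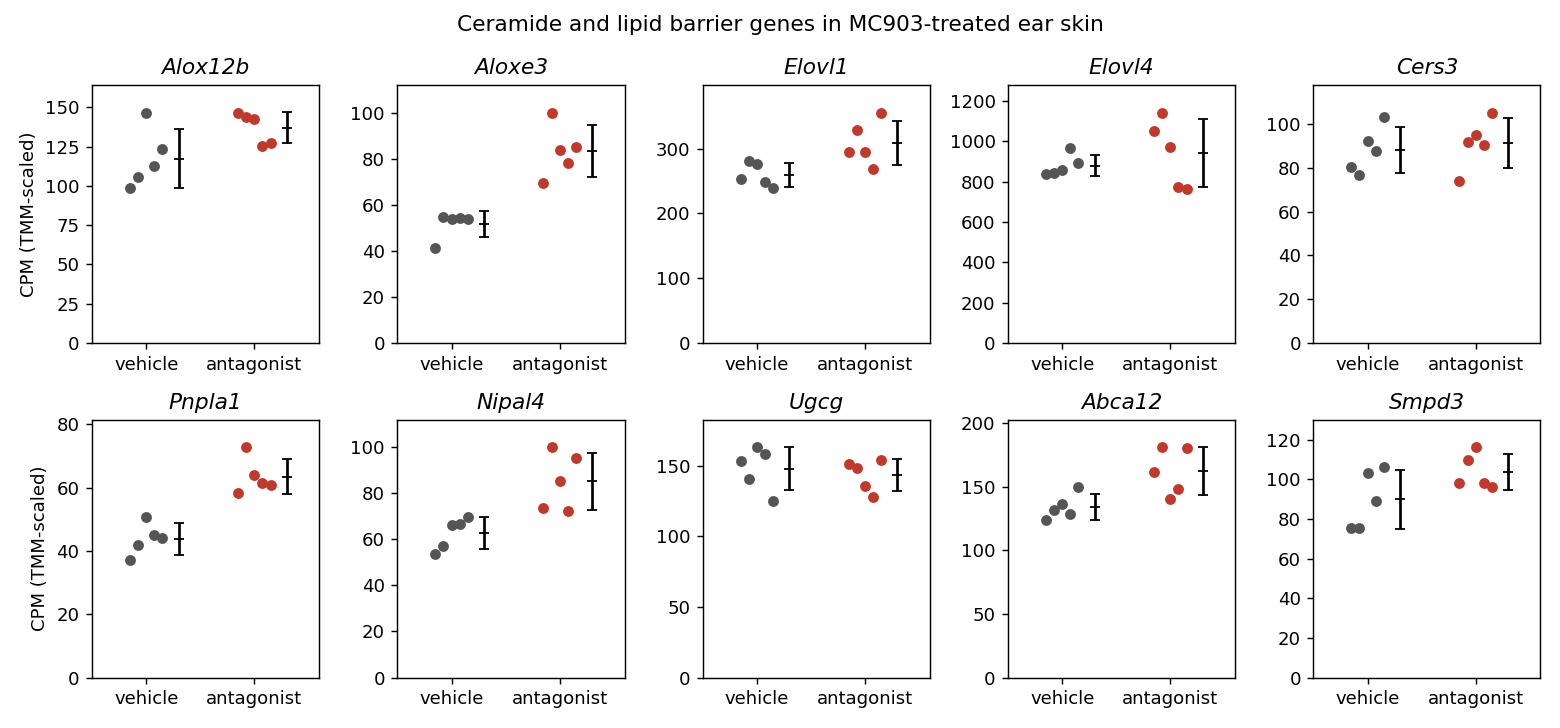
Level of each of the 10 genes in CPM on axes that start at 0, with vehicle libraries in grey and antagonist libraries in red, each set from left to right by replicate number, and bars for the mean and SD of 5 libraries. The groups are apart for Aloxe3, Pnpla1 and Nipal4 and overlap for the other members.

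Pnpla1 and Nipal4 act at the step that makes acylceramide. Pnpla1 (chromosome 17, 28852055 to 28890308) moves linoleate from triglyceride onto the hydroxylated acyl chain. Its vehicle values were 37.1, 41.9, 50.8, 45.1 and 44.1 CPM in replicates 3, 9, 10, 11 and 12. The antagonist values were 58.3, 72.7, 64.0, 61.4 and 61.0 CPM in replicates 4, 6, 7, 8 and 10. No antagonist library reached down to the vehicle range. The means of 43.8 ± 4.97 and 63.5 ± 5.56 CPM (SD, n = 5) gave a log2 fold change of 0.53 ± 0.087 (SE; adjusted p = 0.00195 by edgeR), and no single library decided the call.

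Nipal4, also known as ichthyin, is thought to carry magnesium. Vehicle replicates 3, 9, 10, 11 and 12 held 53.7, 56.9, 66.0, 66.6 and 69.5 CPM. Antagonist replicates 4, 6, 7, 8 and 10 held 73.3, 99.6, 85.0, 72.1 and 94.9 CPM. The groups did not overlap, but antagonist replicate 8 was close to vehicle replicate 12. The means of 62.5 ± 6.85 and 85.0 ± 12.4 CPM (SD, n = 5) gave a log2 fold change of 0.44 ± 0.11 (SE; adjusted p = 0.0103 by edgeR). The call held without any 1 library, and was missed at an adjusted p of 0.056 when vehicle replicate 3 and antagonist replicate 6 were both left out, a setting chosen after seeing the data. The table gives Nipal4 the plus strand and the interval 46148155 to 46183154 on chromosome 11, while GENCODE places it on the minus strand and ends it at 46166508, so its counts may include reads from beyond that annotation, which was not tested. Without overlap between groups were 3 of the 10 members, all higher in antagonist ears, where 10.0% of all tested genes stood apart in that direction and 20.8% in either.

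**Figure D2:**
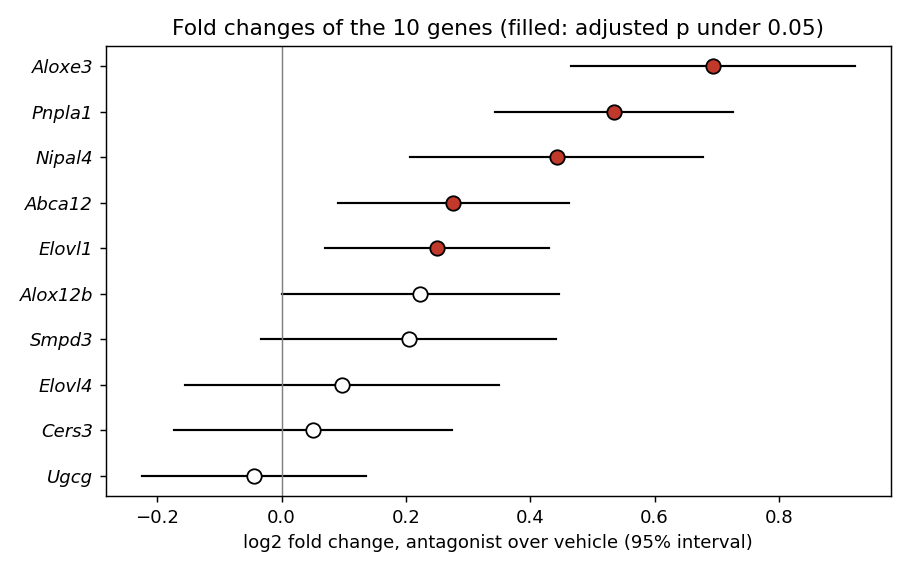
Log2 fold change of antagonist over vehicle for each gene on the x axis, sorted, with lines for the 95% interval and filled points for an adjusted p under 0.05. The filled points run from 0.25 for Elovl1 to 0.69 for Aloxe3, and Ugcg alone lies left of 0.

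Of the 2 genes of glucosylation and transport 1 was called, and the ratio between them did not pass. Abca12 (chromosome 1, 71243090 to 71414910), the transporter whose loss causes harlequin ichthyosis in people, was at 124, 132, 136, 128 and 150.0 CPM in vehicle replicates 3, 9, 10, 11 and 12. In antagonist replicates 4, 6, 7, 8 and 10 it was at 161, 181, 140.1, 148 and 181 CPM. Antagonist replicates 7 and 8 lay below the highest vehicle library, replicate 12. Its log2 fold change was 0.28 ± 0.085 (SE; adjusted p = 0.0275 by edgeR), from 134 ± 10.1 to 162 ± 18.7 CPM (SD, n = 5). By edgeR the call was lost without vehicle replicate 3 (adjusted p = 0.063), 9 (0.0535) or 11 (0.0578) or antagonist replicate 6 (0.0623) or 10 (0.0638). It was also lost in another test, limma on log2(TPM + 1) (adjusted p = 0.0703).

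Ugcg (chromosome 4, 59189507 to 59226415), which adds glucose to ceramide, ranged from 125 to 163 CPM in vehicle and from 128 to 154 CPM in antagonist ears, and the antagonist values lay inside the vehicle range. Its log2 fold change was −0.044 ± 0.082 (SE), with a 95% interval of −0.23 to 0.14 and an adjusted p of 0.706 by edgeR. Abca12 stood at 0.401 of the Ugcg level in vehicle and 0.499 in antagonist ears (means of log2 TPM ratios, SD 0.24 and 0.10, n = 5). The log2 difference of 0.31 did not pass (exact permutation p = 0.0476, adjusted p = 0.0952 over the 4 pairs). It passed without vehicle replicate 12 (adjusted p = 0.0317 by the exact permutation test), which held the lowest Ugcg and the highest vehicle Abca12. Without any other single library the ratio did not pass (adjusted p from 0.0952 to 0.175 by the same test).

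Of the elongases and the ceramide synthase 1 of 3 was called. Elovl1 (chromosome 4, 118426874 to 118432953), which lengthens saturated acyl chains, was at 254, 281, 276, 248 and 239 CPM in vehicle replicates 3, 9, 10, 11 and 12 and at 295, 328, 295, 269 and 356 CPM in antagonist replicates 4, 6, 7, 8 and 10. All but antagonist replicate 8 exceeded every vehicle library. The log2 fold change was 0.25 ± 0.082 (SE; adjusted p = 0.0358 by edgeR). By edgeR the call was not made without vehicle replicate 3 (adjusted p = 0.0675), 11 (0.0733) or 12 (0.0676) or antagonist replicate 6 (0.0708) or 10 (0.0798). Nor was it made in another test, limma on log2(TPM + 1) (adjusted p = 0.0582). Elovl1 overlaps the cell division gene Cdc20 on the other strand. Strand marking is not described in the protocol, and reads in the overlap cannot then be told apart. Cdc20 stood at 23.6 ± 5.74 and 17.5 ± 4.64 CPM, beside 259.5 ± 18.0 and 309 ± 33.6 CPM for Elovl1 (SD, n = 5).

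Elovl4 (chromosome 9, 83778692 to 83806305), which makes the ultra-long chains of acylceramide, averaged 879.7 ± 53.5 CPM with vehicle and 941 ± 169 CPM with the antagonist (SD, n = 5). It ranged from 838 to 968 CPM in vehicle and from 762 to 1143 CPM in antagonist libraries, where replicates 8 and 10 were the lowest of all and replicates 4, 6 and 7 the highest of all. The log2 fold change was 0.097 ± 0.12 (SE), with a 95% interval of −0.16 to 0.35 and an adjusted p of 0.541 by edgeR. Its log2 TPM ratio to Elovl1 moved from 1.00 ± 0.16 to 0.83 ± 0.30 (SD, n = 5; exact permutation p = 0.333, adjusted p = 0.333). Cers3 (chromosome 7, 66733118 to 66823692), which joins these chains to the sphingoid base, ranged from 76.7 to 103 CPM in vehicle and from 73.9 to 105 CPM in antagonist ears, with a log2 fold change of 0.051 ± 0.10 (SE), a 95% interval of −0.17 to 0.27 and an adjusted p of 0.726 by edgeR. For both genes these intervals still hold rises as large as that measured for Elovl1.

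Smpd3 (chromosome 8, 106252548 to 106337965), a neutral sphingomyelinase that releases ceramide from sphingomyelin, is known in mice for its part in cartilage and bone as well. It ranged from 75.3 to 106 CPM in vehicle and from 96.0 to 116 CPM in antagonist ears. Vehicle replicates 3 and 9 were the lowest, and the groups overlapped. The log2 fold change was 0.20 ± 0.11 (SE), with a 95% interval of −0.033 to 0.44 and an adjusted p of 0.163 by edgeR. The ratio of Smpd3 to Ugcg differed by 0.26 (log2 TPM, exact permutation p = 0.151, adjusted p = 0.201) and passed without vehicle replicate 12 (difference 0.38, adjusted p = 0.0423). Without any other single library this ratio did not pass (adjusted p by exact permutation from 0.138 to 0.365). Cartilage markers fell in 10 of 14 tested genes, or 71.4% called beside 34.1% of all tested genes. Their summed level was 539.5 to 972 TPM in vehicle and 340.2 to 591 TPM in antagonist libraries. The highest was Chad (387 ± 98.4 and 331 ± 76.2 TPM) and the lowest Matn1 (0.048 ± 0.0179 and 0.016 ± 0.0219 TPM, SD, n = 5). The part of cartilage markers in the value of Smpd3 was not tested.

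**Figure D3:**
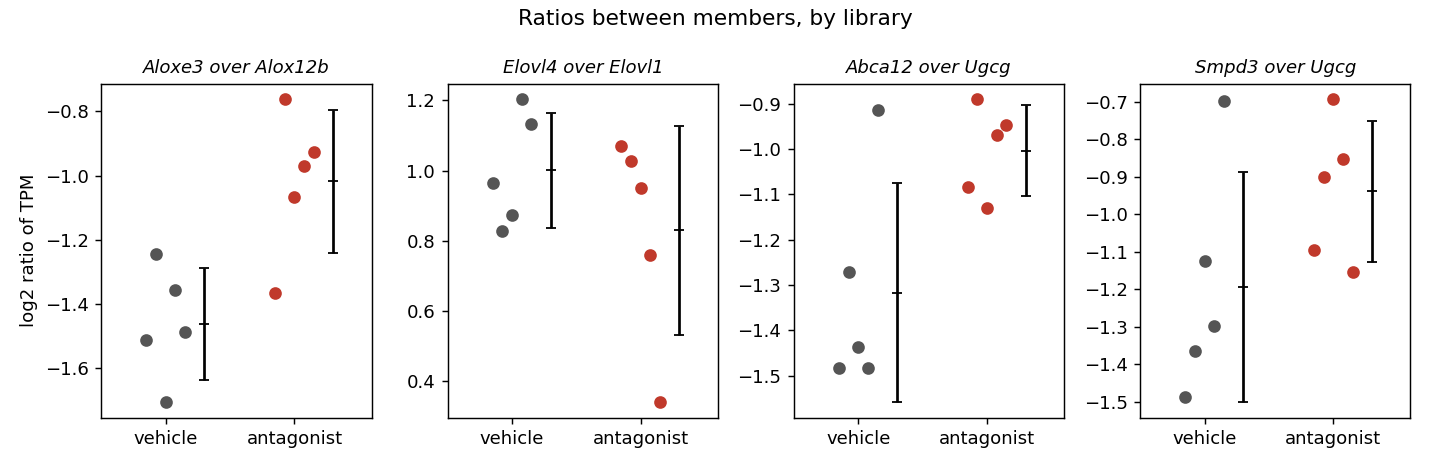
Log2 ratio of TPM between members in each library, with vehicle libraries in grey, antagonist libraries in red, and bars for the mean and SD of 5 libraries. The ranges of the groups overlap in all 4 pairs, and the y axes differ between panels.

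Per length, the elongases were far above the other members. In vehicle ears Elovl4 stood at 489 ± 45.8 TPM and Elovl1 at 244 ± 19.9 TPM. Alox12b followed at 85.0 ± 11.8 TPM, Ugcg at 67.4 ± 7.02 TPM and Cers3 at 45.9 ± 5.17 TPM (SD, n = 5). Nipal4 at 32.2 ± 3.81, Aloxe3 at 30.9 ± 3.93, Smpd3 at 29.6 ± 4.51 and Abca12 at 27.0 ± 2.19 TPM lay within their spread of each other, and Pnpla1 was lowest at 19.6 ± 2.39 TPM. In antagonist ears Aloxe3, at 48.8 ± 5.96 TPM, came level with Cers3 at 47.1 ± 5.33 TPM and Nipal4 at 43.2 ± 5.73 TPM. The order of the first 4 was the same there, with Elovl4 at 518 ± 93.7, Elovl1 at 289 ± 34.7, Alox12b at 98.6 ± 8.68 and Ugcg at 65.0 ± 7.26 TPM.

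The libraries did not move through all members together. Vehicle replicate 3 held the lowest value of 5 genes, Alox12b, Aloxe3, Pnpla1, Nipal4 and Abca12. Antagonist replicate 6 held the highest value of 5 genes, Aloxe3, Pnpla1, Nipal4, Abca12 and Elovl4. Without both these libraries 2 members, Aloxe3 and Pnpla1, were called by edgeR, and 2358 genes in all, against 5176 with every library. Ugcg took no part in this pattern, with its highest value in vehicle replicate 10 and its lowest in vehicle replicate 12. The 10 genes together held 0.173% to 0.201% of all counts in vehicle and 0.184% to 0.237% in antagonist libraries.

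**Figure D4:**
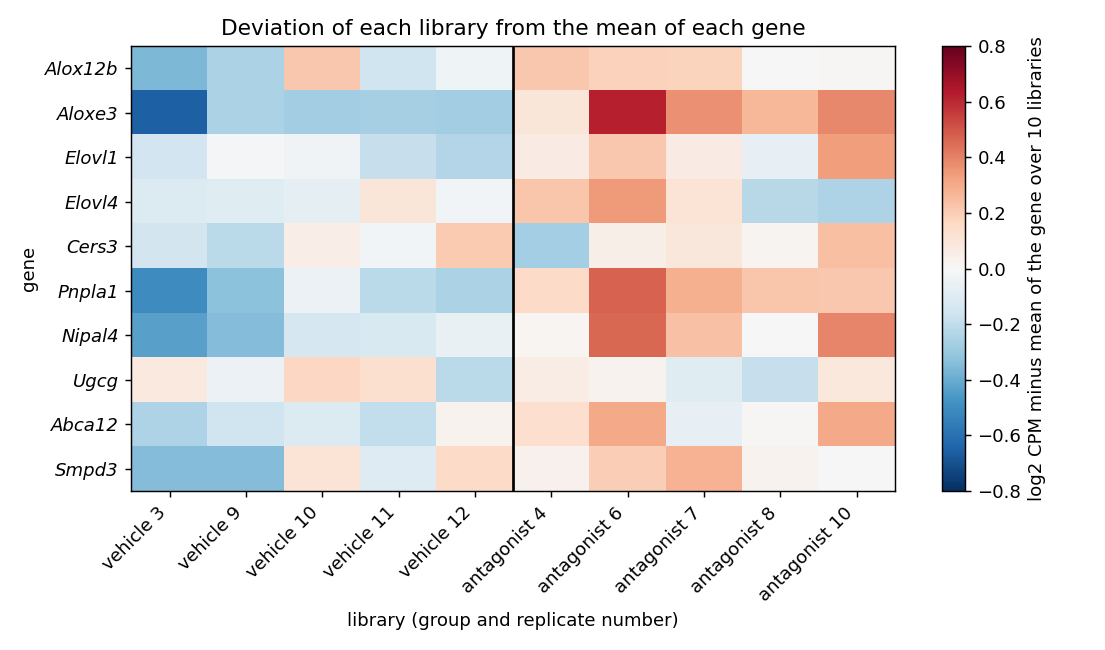
Log2 CPM of each gene (rows) in each library (columns) minus the mean of the gene over 10 libraries, with red for higher and blue for lower. Vehicle replicate 3 is the lowest library in 5 of 10 rows, and the rows of Aloxe3 and Pnpla1 change colour at the line between the groups.

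Markers of the cells that make this barrier were abundant. The 15 suprabasal and granular keratinocyte markers summed to 19260 to 27460 TPM in vehicle and 22900 to 28320 TPM in antagonist libraries, and none was at 0. Of these, 5 rose, 0 fell and 10 did not pass, or 33.3% called beside 34.1% of all tested genes. The median log2 fold change of the list was 0.18. Its lowest, −1.07 ± 0.51 (SE), was that of Krt77, named after its values were seen, which did not pass (adjusted p = 0.126 by edgeR). Lor (loricrin), the main envelope protein, rose from 1142 ± 245 to 1797 ± 260.4 CPM (SD, n = 5) and Sbsn (suprabasin) from 1165 ± 81.2 to 1595 ± 220.3 CPM. Cdsn (corneodesmosin) had a log2 fold change of 0.65 ± 0.19 and Hrnr (hornerin) of 0.45 ± 0.13 (SE). By edgeR, Cdsn lost its call when vehicle replicate 3 was left out (adjusted p = 0.0535) or antagonist replicate 6 was (0.0515), and Hrnr without vehicle replicate 3 (0.0522). Averaged over the list, log2 CPM came to 9.64 ± 0.24 with vehicle and 9.86 ± 0.16 with antagonist (SD, n = 5), and vehicle replicate 3 was the lowest at 9.30. With this mean as a covariate 3 members, Aloxe3, Pnpla1 and Elovl1, were called by edgeR. The same fit called 3150 genes in all, against 5176 without the covariate. In it Nipal4 stood at 0.36 (log2 fold change, adjusted p = 0.0544) and Abca12 at 0.27 (adjusted p = 0.0817). Of the pathway genes described next Hsd17b12, Kdsr, Cers5, Sdr9c7, Tmem79, Asah1, Alox5, Alox15 and Nr1h3 also lost their calls with it, at adjusted p by edgeR from 0.0533 to 0.204.

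Of the marker lists of other cells, those of leukocytes, fibroblasts and cartilage had median log2 fold changes of −1.05, −1.48 and −1.58. The shares called were 90.9%, 66.7% and 71.4%, beside 34.1% of all tested genes. The share was 37.5% for basal keratinocyte, 28.6% for stressed keratinocyte and for Schwann cell, 22.2% for adipocyte and 7.69% for sebaceous gland markers. The part of these markers in the results of the members was not tested beyond the covariate fits given next. Leukocyte markers fell in 10 of 11 tested genes, from a summed 1418 to 2349 TPM in vehicle to 1008 to 1372 TPM in antagonist libraries, led in level by Fcer1g at 757 ± 162 and 503 ± 75.6 TPM (SD, n = 5), while Ly6g was near 0 (0.918 ± 0.502 and 0.286 ± 0.0709 TPM). Fibroblast markers fell in 6 of 9, from 5598 to 7850 TPM to 2469 to 3882 TPM, with Dcn highest (2671 ± 229 and 1867 ± 185 TPM) and Pdgfrb lowest (28.8 ± 2.50 and 30.0 ± 4.80 TPM; SD, n = 5). Of 13 sebaceous gland markers 1 rose and 0 fell, with sums of 1129 to 1468 and 1049 to 1743 TPM. Scd1 was highest (527 ± 81.7 and 528 ± 175 TPM), and Plin5, the 1 riser, was lowest (1.09 ± 0.236 and 2.66 ± 0.491 TPM; SD, n = 5). Basal keratinocyte markers rose in 3 of 8 and fell in 0, with 10720 to 16190 and 11280 to 13380 TPM, and stressed keratinocyte markers fell in 2 of 7 and rose in 0, with 14300 to 26190 and 14780 to 18270 TPM. The 2 falls were those of S100a8 and S100a9 (log2 fold changes −0.99 and −1.29). The keratins Krt6a, Krt6b, Krt16 and Krt17 and the gene Sprr1b did not pass. Adipocyte markers rose in 2 of 9 (974 to 1601 and 1047 to 2523 TPM) and Schwann cell markers in 2 of 7 (174 to 241 and 141 to 263 TPM), and 0 fell in either list. The adipocyte risers were Plin4 and Lpl. The median log2 fold change of the adipocyte list was −0.025, and its mean log2 CPM was 5.52 ± 0.24 and 5.12 ± 0.74 (SD, n = 5). Its lowest log2 fold change, −1.93 for Lep, did not pass (adjusted p = 0.0581 by edgeR). No marker in any list was at 0 in every library. 

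With the mean of the leukocyte, cartilage or fibroblast markers as a covariate, edgeR called 0 genes, and 442, 1894 and 723 genes had an unadjusted p under 0.05. Group membership accounted for 90.6%, 69.1% and 84.6% of the variance of these means, so in such fits group and covariate can hardly be told apart. The signs of 8 of the 10 members were kept with the cartilage or the fibroblast mean, and that of 1, Ugcg, with the leukocyte mean. With the sebaceous gland mean 3 members were called by edgeR, and 4457 genes in all, against 5176 without a covariate. In that fit Elovl1 stood at 0.24 (log2 fold change, adjusted p = 0.0711) and Abca12 at 0.27 (adjusted p = 0.0592).

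The rest of the route was read from 6 lists of other genes with 78 tested members, of which 16 rose, 8 fell and 54 did not pass, or 30.8% called beside 34.1% of all tested genes. Fatty acid activation and elongation had 0 rises and 1 fall among 12 tested genes, or 8.33% called. The fall was that of Hsd17b12, a reductase of the elongation cycle, with a log2 fold change of −0.24 ± 0.077 (SE; adjusted p = 0.03 by edgeR). It was missed without any 1 of 6 libraries (vehicle replicates 3, 9, 10 and 12, antagonist replicates 8 and 10; adjusted p from 0.0519 to 0.0754).

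Of 16 genes of ceramide backbone synthesis 2 rose and 1 fell, or 18.8% called beside 34.1% of all tested genes. Ormdl3, a brake on the first enzyme of the route, rose from 57.4 ± 2.12 to 83.3 ± 12.8 CPM (SD, n = 5), with no overlap between groups and an adjusted p of 0.00265 by edgeR. Kdsr, the reductase of the next step, had a log2 fold change of 0.24 ± 0.076 and Cers5, a synthase of shorter ceramides, of −0.30 ± 0.094 (SE). Kdsr kept its call only without vehicle replicate 11 or antagonist replicate 4, with adjusted p from 0.0516 to 0.0719 without the other 8 libraries, and on TPM its log2 fold change was 0.14 (adjusted p = 0.151 by limma). Cers5 missed it without vehicle replicate 3 or antagonist replicate 6, 8 or 10, with adjusted p by edgeR from 0.0588 to 0.08.

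Among 8 genes that complete acylceramide or attach it to the envelope, 1 rose and 0 fell, or 12.5% called beside 34.1% of all tested genes. Sdr9c7, which oxidises the epoxy alcohol made by Aloxe3, rose by 0.24 ± 0.078 on the log2 scale (SE; adjusted p = 0.0368 by edgeR). Its call was missed without any 1 of 7 libraries (vehicle replicates 3, 9, 10 and 11, antagonist replicates 6, 7 and 10), with adjusted p from 0.0548 to 0.0824.

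Among 20 genes of lamellar lipid processing and ceramide turnover there were 4 rises and 2 falls, or 30.0% called beside 34.1% of all tested genes. Acer2, an alkaline ceramidase, rose from 30.9 ± 3.88 to 50.0 ± 10.6 CPM, Smpd2, another neutral sphingomyelinase, from 15.1 ± 1.13 to 22.3 ± 2.72 CPM and Sphk2, a sphingosine kinase, from 54.7 ± 3.91 to 69.3 ± 5.39 CPM (SD, n = 5). Sgms2, which turns ceramide into sphingomyelin, fell from 22.9 ± 1.23 to 17.1 ± 2.79 CPM. These 4 genes had adjusted p of 0.00465, 0.0022, 0.00471 and 0.0105 by edgeR and no overlap between groups. The remaining calls, named after their values were seen, were Tmem79 of the lamellar granules (log2 fold change 0.25 ± 0.080, SE) and the acid ceramidase Asah1 (−0.35 ± 0.093, SE). Tmem79 was missed without any 1 of 5 libraries (vehicle replicates 3, 9 and 11, antagonist replicates 6 and 10), at adjusted p from 0.0526 up. Asah1 was missed without vehicle replicate 3 and antagonist replicate 6 together (−0.24, adjusted p = 0.0785 by edgeR).

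**Figure D5:**
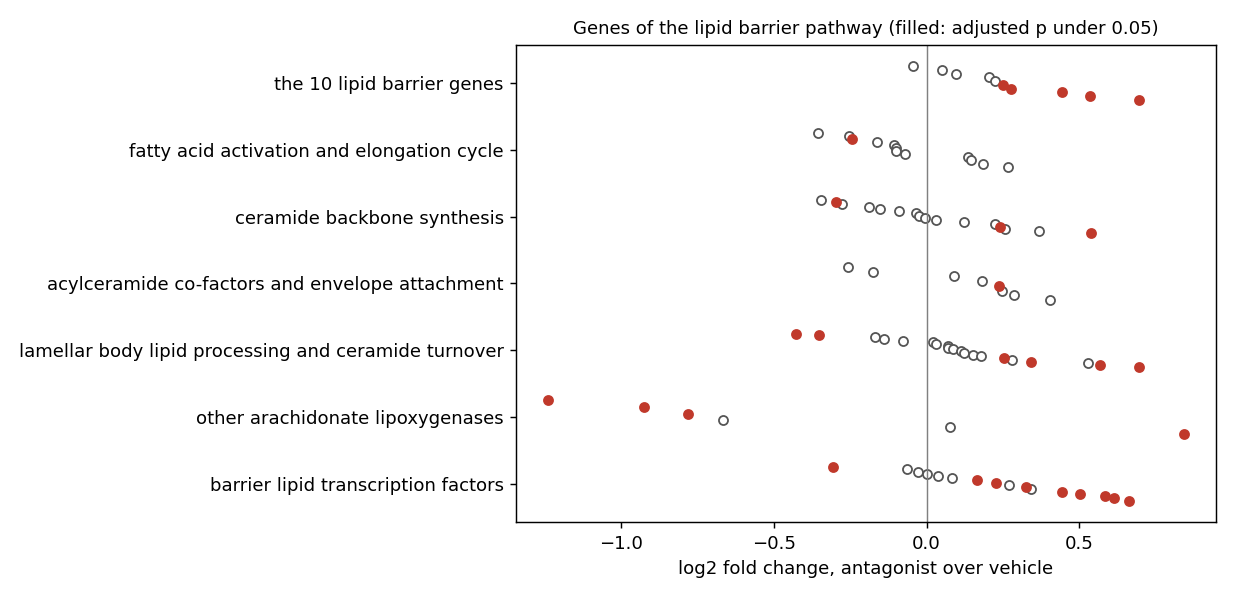
Log2 fold change of antagonist over vehicle on the x axis for the 10 members and for the tested genes of 6 pathway lists, each point a gene, filled for an adjusted p under 0.05. The members lie from −0.044 to 0.69, and the lipoxygenases that are not members spread from −1.24 to 0.84.

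Lipoxygenases outside the ceramide route, with the partner protein of Alox5, moved in both directions, with 3 falls and 1 rise among 6 genes. This made 66.7% called beside 34.1% of all tested genes. Alox15, a lipoxygenase of macrophages and eosinophils, fell from 19.9 ± 4.62 to 8.43 ± 4.09 CPM, and Alox5ap, the partner protein of Alox5 in leukotriene synthesis, from 102 ± 25.9 to 53.9 ± 11.9 CPM (SD, n = 5). Alox5 itself had a log2 fold change of −0.78 ± 0.25 (SE; adjusted p = 0.0327 by edgeR), missed without any 1 of 7 libraries (vehicle replicates 3, 9 and 10, antagonist replicates 6, 7, 8 and 10; adjusted p from 0.061 to 0.0855). Alox12, the platelet-type enzyme that mouse epidermis also makes, rose from 13.3 ± 2.80 to 23.9 ± 4.98 CPM. The adjusted p by edgeR was 0.00979 for Alox15, 0.00499 for Alox5ap and 0.00462 for Alox12, with no overlap between groups. Leukocyte markers fell as well, in 10 of 11 tested genes (90.9% called) with a median log2 fold change of −1.05. With their mean as a covariate the log2 fold changes were 1.24 for Alox15, 0.63 for Alox5ap, 1.01 for Alox5 and 0.27 for Alox12. None of these was called, and that fit called 0 genes in all. Of 24 named genes other than members 17 turned sign in it. Group membership accounted for 90.6% of the variance of the mean, so group and covariate can hardly be told apart. The part of leukocytes in the falls of Alox15, Alox5ap and Alox5 was not tested. Alox8, which lies 14094 bases beyond Alox12b, had a log2 fold change of −0.67 ± 0.24 (SE) and did not pass (adjusted p = 0.0512 by edgeR).

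Of 16 transcription factors known to govern barrier genes 8 rose and 1 fell, or 56.2% called beside 34.1% of all tested genes. The list was chosen with earlier results of these data known, so this count is a description. Grhl1, a Grainyhead factor of the upper epidermis, rose from 120 ± 12.8 to 179 ± 17.3 CPM, Zfp750, a factor of terminal differentiation, from 149 ± 16.1 to 203 ± 14.1 CPM, and Vdr, the vitamin D receptor that MC903 binds, from 64.1 ± 4.49 to 90.9 ± 11.9 CPM (SD, n = 5). Their adjusted p by edgeR were 0.00149, 0.00309 and 0.00286, and the groups did not overlap. In this list 4 of 16 genes had no overlap between groups, beside 20.8% of all tested genes. Nr1h3, the liver X receptor alpha, had a log2 fold change of 0.61 ± 0.18 (SE; adjusted p = 0.0251) and missed the threshold by edgeR without vehicle replicate 3 or 12 or antagonist replicate 6 or 10 (adjusted p from 0.0502 to 0.0573). The 1 fall, named after its value was seen, was that of Grhl3, another Grainyhead factor of the epidermal barrier, with a log2 fold change of −0.31 ± 0.093 (SE; adjusted p = 0.0266 by edgeR). It was missed without vehicle replicate 11 or 12 or antagonist replicate 6 or 8 (adjusted p from 0.0539 to 0.0731) and with the sebaceous gland mean (0.0832).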

How the data were processed

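RNA of whole ear skin was profiled in 10 libraries, 5 for each group. Poly(A) RNA libraries were made and sequenced as DNA nanoballs, per the labels' protocols. The submitters' processing notes name HISAT, and the tool and build behind the counts are not stated in what was used here. Per the file headers, the authors deposited each library's expected counts (estimated counts that need not be whole), TPM and FPKM, with group means. The authors also deposited a DESeq2 comparison with log2 fold changes, p-values and q-values, from which just the q-values of the members are given. FPKM and group means were not used. Columns were matched to samples by title with 0 unmatched, and 1 empty line was skipped. Of 18930 genes matched to GENCODE M21 by identifier, 18912 overlapped their GRCm38 gene on the same chromosome.

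Expected counts (20183024 to 20606007 per library) were rounded to whole numbers, filtered with edgeR's filterByExpr (minimum count 10, total 15) and given TMM factors (0.972 to 1.04). The model held group alone and was tested by quasi-likelihood F in edgeR 4.0.16 under R 4.3.3, adjusted over 15174 genes. Standard errors were taken as log2 fold change over the root of F, with 95% intervals. The code was tested on simulated data. The 4 pair ratios were compared on log2 TPM by exact permutation. The squared difference of any pair of libraries was at least 21.4 times sampling noise over 12200 genes. The labels give no batch.

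The members and lists were chosen with earlier results of these data known. The naming rule took all members, the 4 genes with the smallest p of each list, and the highest and lowest marker of each other cell type. Printed are the called ones of the pathway and suprabasal lists and the markers of the lists set beside a result. Others are said to be chosen after their values were seen, or are neighbours of a member. Of the list entries 1 was not found in the table. Alternatives covered normalization, filters, DESeq2 1.42.0, limma 3.58.1 (voom with sample weights, and trend on TPM with pseudocounts of 1 and 0.1), robust estimation, 5 marker means as covariates and each library left out. Leaving out vehicle replicate 3 with antagonist replicate 6, and the alternatives for genes other than members, were added after seeing the data. Protein sequences were not used here.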

Additional observations from a re-analysis of the deposited data

Results flagged for a closer look

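The vehicle level of Aloxe3 in replicate 3, 41.5 CPM, stood apart from the other 4 vehicle libraries, which lay between 53.7 and 54.6 CPM. The gap took up 0.93 of the range of the group, past the 95% limit of Dixon's test for 5 values. Chance alone passes that limit in about 1 of 20 groups, and 20 groups of the 10 genes and 8 of the ratios were looked at. Without that library the log2 fold change of Aloxe3 was 0.63, with an adjusted p of 0.00364 by edgeR.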

How the results depend on the processing

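Under other scaling factors, filters, DESeq2, voom and robust estimation the 5 member calls and the count of members were the same. The members called numbered 3 on log2(TPM + 1), 3 on log2(TPM + 0.1), and 3 with the suprabasal and 3 with the sebaceous covariate. In the same order 4579, 4566, 3150 and 4457 genes were called over the whole table, against 5176 in the main fit. With the cartilage, leukocyte or fibroblast covariate 0 members were called. Leaving out 1 library gave 3 to 6 members, 14 to 26 pathway genes (24 with all) and 3850 to 5641 genes (5176 with all). The 3 members were reached without vehicle replicate 3 or 11 or antagonist replicate 6 or 10, and 14, 15 and 15 pathway genes without vehicle replicate 3, antagonist replicate 6 and antagonist replicate 10. Without vehicle replicate 3 and antagonist replicate 6 there were 2 members, 13 pathway genes and 2358 genes. The suprabasal covariate left 3150 genes and 12 pathway genes, and the cartilage, leukocyte and fibroblast means 0 of each by edgeR, where 8, 1 and 5 pathway genes and 2, 1 and 0 members had an unadjusted p under 0.05 with the cartilage, leukocyte and fibroblast mean. Causes were not tested. With 1 library left out the log2 ratio difference ran from 0.38 to 0.53 for Aloxe3 to Alox12b, from 0.27 to 0.41 for Abca12 to Ugcg, from 0.18 to 0.38 for Smpd3 to Ugcg and from −0.23 to −0.048 for Elovl4 to Elovl1. Signs turned as follows (log2 fold change). With the leukocyte mean they were Alox12b −0.16, Aloxe3 −0.17, Elovl1 −0.095, Elovl4 −0.20, Cers3 −0.53, Pnpla1 −0.069, Nipal4 −0.49, Abca12 −0.37 and Smpd3 −0.32, and among other genes Kdsr −0.043, Cers5 0.15, Ormdl3 −0.22, Sdr9c7 −0.093, Acer2 −0.12, Alox5 1.01, Alox5ap 0.63, Alox15 1.24, Nr1h3 −0.47, Grhl1 −0.0024, Zfp750 −0.018, Vdr −0.18, Lor −0.0094, Sbsn −0.22, Cdsn −0.26, Tmem79 −0.15 and Asah1 0.44. With the fibroblast mean they were Elovl1 −0.15, Cers3 −0.096, Kdsr −0.035, Acer2 −0.065, Alox5 0.14, Alox15 0.30 and Nr1h3 −0.60. With the cartilage mean they were Elovl1 −0.0075, Cers3 −0.14 and Nr1h3 −0.12. The suprabasal mean turned Cers3 (−0.024) and Ugcg (0.038), the sebaceous mean Elovl4 (−0.065), and leaving out antagonist replicate 10 turned Cers3 (−0.0044, in a range up to 0.12 over all libraries left out). No paired analysis was possible because the groups share 1 replicate number. The lowest level of any member in any library was 37.1 CPM (Pnpla1, vehicle replicate 3).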
